A study of Mus musculus with 4 samples.

Results

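Wnt7a, Wnt7b, Reck and Adgra2 encode the ligands and the coreceptors of a route to beta-catenin that runs beside norrin signalling in brain endothelium. They were taken by symbol and are 4 of the 32285 genes in the count tables, each matching 1 gene identifier. Wnt7a and Wnt7b are secreted, lipid-modified Wnt proteins made by neural progenitors, glia and some neurons. Reck is a membrane-anchored protein that binds Wnt7 ligands and also restrains metalloproteinases, and Adgra2, better known as Gpr124, is an adhesion receptor that joins Reck to Frizzled and Lrp5 or Lrp6 at the endothelial surface. Norrin, the product of Ndp, reaches the same beta-catenin pathway through Fzd4, Lrp5 or Lrp6 and Tspan12, and both routes are known for vessel growth and barrier formation in the central nervous system.

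The study profiled single cells of the subdural meninges over the mouse cerebellum in wild-type (NdpWT) and norrin knockout (NdpKO) pups. All 4 libraries, 2 of each genotype, came from mice that carried Neurod2-SmoA1+/-, a transgene that drives an activated Smoothened in cerebellar granule neuron precursors, on a C57/BL6 background, so the control mice carried it too. Each library pooled 5 cerebella from 3 litters, the labels give ages of P6 to P8 and the protocol P7 to P9, and each NdpWT run was litter-matched with a NdpKO run without saying which replicate numbers belong together. The replicates are therefore pools, and the p-values below measure the spread between 2 pools per genotype. The exceptions are fits with a block. With the library as a block, the p-values measure the spread between pools of a difference between classes, not of a level. With the replicate number as a block, they do not measure the spread between pools.

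The 4 libraries held 12904 to 19134 barcodes and 114363848 to 125981161 unique molecular identifiers (UMIs), and 37915 cells were kept. NdpKO replicate 1 stood apart: 44.1% of its barcodes were kept, 21.8% exceeded 10% mitochondrial UMIs against 7.58% to 10.4% in the other libraries, and its median was 14300 UMIs per kept cell against 7220 to 9464. Any 2 libraries shared 15 to 47 kept barcodes. Ndp itself had 2.07 and 1.36 CPM (UMIs of the gene per 1000000 UMIs) in the NdpWT libraries and 0.411 and 0.471 CPM in the NdpKO libraries, so the order of the labels held in all 4. Cells were clustered again from the counts and each cluster was named only from marker genes, so that "endothelial" below means endothelial-like and likewise for the other names; clusters that met no name are given by 2 leading genes. Levels are CPM of UMIs summed over the cells of a class in a library. Since the libraries tag the 3' ends of transcripts and are not scaled by length, levels are compared between cells and never between genes.

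Wnt7a (ENSMUSG00000030093) lies on chr6:91363981-91411363 of GRCm38, on the minus strand, in 4 exons, and Wnt7b (ENSMUSG00000022382) on chr15:85535437-85582473, minus strand, also in 4 exons. An antisense gene, AU022754, overlaps Wnt7b at its 5' side but not its last exon. The ligand genes are paralogs, and near-identical stretches could make reads of the pair hard to assign. Their coding sequences had the same base at 802 of 1072 aligned columns (74.8%). The last 90 coding bases before the stop codon are shown because the pair is so alike there (86.7% identical). After the stop codon the Wnt7a transcript runs on for 1868 bases and the Wnt7b transcript for 1948. The bases shown are therefore not at the tagged end. They lie in the last exon of each gene, at chr6:91365852-91365941 and chr15:85537392-85537481, both read 5′ to 3′ on the minus strand, and capitals mark the 12 bases that differ.
Wnt7a: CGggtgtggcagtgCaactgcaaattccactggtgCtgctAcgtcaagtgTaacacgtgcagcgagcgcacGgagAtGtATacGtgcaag
Wnt7b: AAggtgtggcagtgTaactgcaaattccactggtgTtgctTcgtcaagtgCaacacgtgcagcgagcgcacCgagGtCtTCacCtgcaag
The longest run of bases shared by the 2 transcripts was 23, and the longest shared by the stretches after their stop codons was 11. Reck (ENSMUSG00000028476) spans chr4:43875530-43944806 on the plus strand in 21 exons, with the small RNA gene Gm27265 inside it but outside its last exon. Adgra2 (ENSMUSG00000031486) spans chr8:27085583-27123436 on the plus strand in 19 exons. Its last exon overlaps the end of Brf2, which lies on the opposite strand, so that Adgra2 counts rest on the counting having used strand, which was not tested.

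The glial classes carried the markers of their names: the 11 astroglial markers summed to 17330 to 28530 CPM in astroglia and the 11 oligodendrocyte markers to 8895 to 25340 CPM in the oligodendrocyte lineage, against at most 188 and 94.1 CPM in endothelial cells.

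Wnt7a was found mostly in glia. It had 70 UMIs in all kept cells, and 45 of them (64.3%) were in astroglia, which were 244 cells, or 0.644% of the total. The astroglial level was 18.4 CPM in NdpWT replicate 1 (26 UMIs), 9.80 in NdpWT replicate 2 (2 UMIs), 9.38 in NdpKO replicate 1 (4 UMIs) and 36.9 in NdpKO replicate 2 (13 UMIs). The genotypes overlapped, and 3 of the 4 libraries rested on 2 to 13 molecules from 23 to 44 cells. Over all libraries the astroglial level was 18.8 CPM, with an exact 95% Poisson interval of 13.7 to 25.1 that, like all intervals here, covers counting error only. The oligodendrocyte lineage held 8 further UMIs at 2.02 CPM (0.871 to 3.98). The 6229 fibroblasts held 11 UMIs, a level of 0.114 CPM (0.0570 to 0.204), and the few remaining UMIs were spread over other classes.

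Wnt7b was shared among astroglia, the oligodendrocyte lineage and GABAergic interneurons. Of its 145 UMIs, astroglia held 47 (32.4%) and the oligodendrocyte lineage 45 (31.0%). In astroglia Wnt7b had 26.1 CPM in NdpWT replicate 1 (37 UMIs), 14.7 in NdpWT replicate 2 (3 UMIs), 2.34 in NdpKO replicate 1 (1 UMI) and 17.0 in NdpKO replicate 2 (6 UMIs). In the oligodendrocyte lineage it had 7.92 and 15.5 CPM in the NdpWT libraries and 6.66 and 33.4 CPM in the NdpKO libraries, from 5 to 17 UMIs each. In both classes the genotypes overlapped. Pooled over libraries, the levels were 19.6 CPM (14.4 to 26.1) in astroglia and 11.4 CPM (8.28 to 15.2) in the oligodendrocyte lineage.

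Among the named sub-classes of the oligodendrocyte lineage, Wnt7b was found in precursors and cycling cells. The 83 cells named as precursors held 28 UMIs at 25.4 CPM pooled, with 18.2 and 42.8 CPM in the NdpWT libraries and 21.3 and 52.5 CPM in the NdpKO libraries. A cycling group of 29 cells held 11 UMIs at 29.4 CPM, and no Wnt7b UMI was found in the cells named as myelinating. Those were 37 and 15 NdpWT cells but 1 and 7 NdpKO cells, so this absence rests on few cells. The remaining cells of the lineage took no sub-class name. The 6 Wnt7a UMIs of the precursors gave 5.44 CPM. Among 584 cells of the GABAergic interneuron lineage, 13 carried Wnt7b, with 16 UMIs and up to 4 in 1 cell. The libraries there had 3.05, 0, 5.59 and 4.11 CPM in the same order, and no Wnt7a UMI was found in this class.

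Detection of the ligands in single glial cells was sparse, and whether they were found together more or less often than separately was not tested. Of 244 astroglia, 33 had a Wnt7a UMI, 34 a Wnt7b UMI and 7 both. Of 358 cells of the oligodendrocyte lineage, 7 had Wnt7a, 37 had Wnt7b and 3 had both. None of the fibroblasts had both, although 10 had Wnt7a and 14 had Wnt7b. After thinning each cell to 3000 UMIs, which removes differences in depth and left 132 astroglia, 5.30% had Wnt7a and 4.55% had Wnt7b, against 13.5% and 13.9% of all 244 unthinned.

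Neither ligand was detected in vascular cells, where the route is known to act. No UMI of Wnt7a or Wnt7b was found in 2194 endothelial cells, 763 mural cells or 3193 macrophages. A count of 0 allows up to 0.126 CPM in endothelial cells, 0.381 CPM in mural cells and 0.0903 CPM in macrophages (3 counts of each class total). The granule neuron lineage, 5666 cells, held 1 UMI of Wnt7a and 2 of Wnt7b. The preparation was described as leaving aside the dura and the choroid plexus and was taken from the surface of the cerebellum. An unnamed class of 64 cells was still led by Ttr, a marker of choroid plexus epithelium. How the glia came to be in the preparation was not tested.

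**Figure D1:**
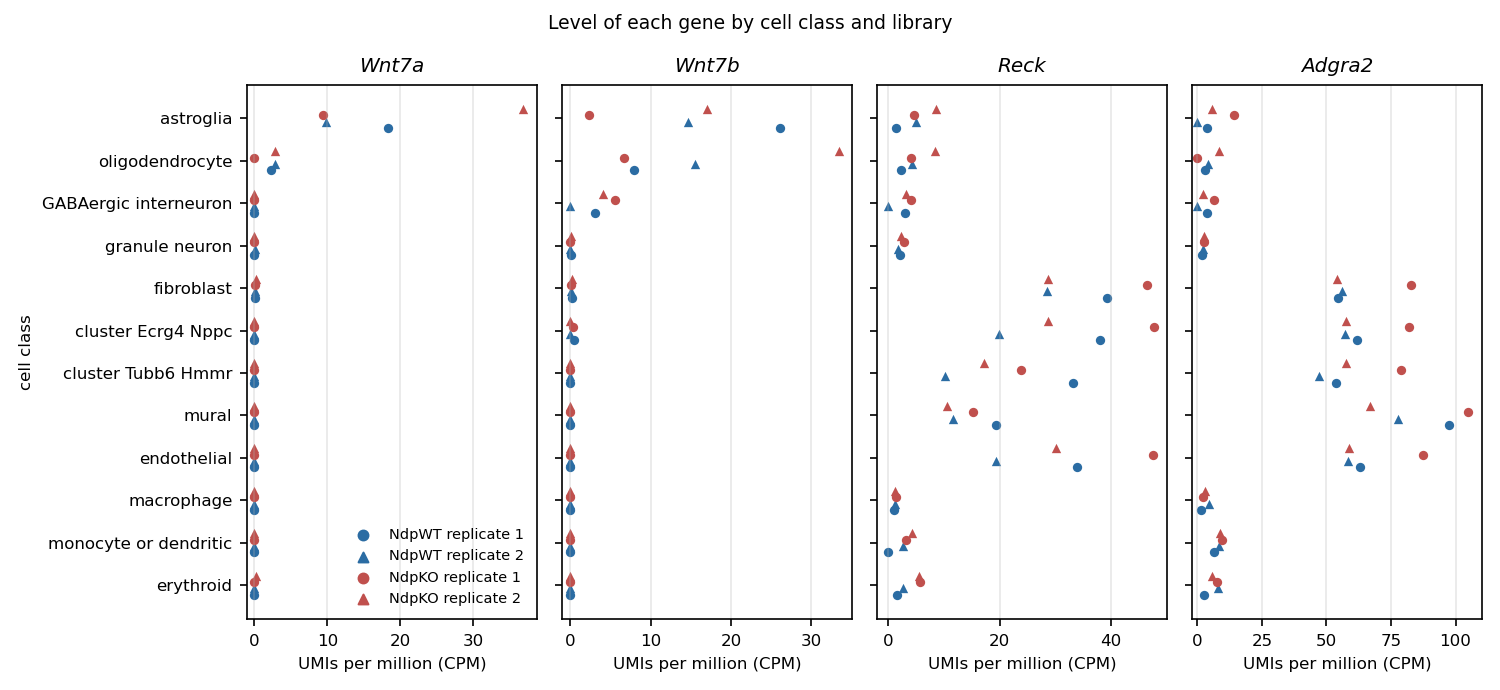
Level of each of the 4 genes (x axis, CPM, linear and different for each gene) by cell class (y axis), with 1 point per library, genotype by colour and replicate by shape. Wnt7a and Wnt7b points stand highest in astroglia and the oligodendrocyte lineage, while, among the classes drawn, Reck and Adgra2 points stand highest in fibroblast, endothelial and mural cells and in the clusters led by Ecrg4 and Nppc and by Tubb6 and Hmmr.

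Most Reck UMIs came from stromal and vascular cells. Fibroblasts held 53.6% of its 6402 UMIs, the unnamed class led by Ecrg4 and Nppc 21.3%, endothelial cells 11.6% and mural cells 1.61%. In fibroblasts the NdpWT libraries had Reck at 39.3 CPM (replicate 1) and 28.5 CPM (replicate 2), and the NdpKO libraries at 46.5 CPM (replicate 1) and 28.6 CPM (replicate 2). The Ecrg4 Nppc class had 37.9, 19.9, 47.6 and 28.6 CPM in that order, and the endothelial class 33.9, 19.4, 47.4 and 30.1 CPM. These 3 classes overlapped in their spread over libraries and are not ordered among themselves. Mural cells had 19.3, 11.5, 15.2 and 10.5 CPM, lower than the endothelial class in every library. The small class led by Tubb6 and Hmmr had 33.1, 10.2, 23.8 and 17.1 CPM and overlapped both. Among large classes of other kinds, macrophages had 1.20 CPM pooled and the granule neuron lineage 2.13 CPM. The unnamed class led by Ecrg4 and Ccn3 (773 cells, not plotted) held 0.453% of Reck UMIs (29) and 0.778% of Adgra2 UMIs (94). It held 0.559% of the UMIs of all genes. Several small classes stood above the macrophages and the granule neuron lineage in Reck, and not all of them are listed. Neutrophils had 23.7 CPM pooled (12 UMIs in 57 cells, exact Poisson 95% interval 12.2 to 41.3) for Reck and, from 12 UMIs as well, for Adgra2. An unnamed class of 84 cells led by Bnc2 and Col25a1, which is not plotted, had Reck at 51.5 CPM (12 UMIs, 26.6 to 90), and Adgra2 at 55.8 CPM (13 UMIs, 29.7 to 95.5). Reck had 10.0 CPM (8 UMIs) in the class led by Ttr and Calml4, 9.76 CPM (10 UMIs) in that led by Arpp21 and Gm42912 and 4.98 CPM (9 UMIs) in T, NK or innate lymphoid cells. These low counts leave wide intervals.

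Replicate 1 of each genotype had the higher Reck level in the fibroblast, Ecrg4 Nppc, endothelial and mural classes. The replicate 1 libraries also had the higher median UMI count within their genotype, and the part of depth in this order was not tested. Among the fibroblasts, pooled Reck was 39.8 CPM in the cluster led by Aebp1 and Ranbp3l, 29.6 CPM in the cluster led by Col15a1 and Itih5 and 24.4 CPM in the shallow cluster led by Ptgds and Chchd10.

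Inside the endothelium Reck was concentrated in 1 of 2 clusters. The cluster led by Gkn3 and Fbln5, 697 cells that took in the cells with arterial markers, had 91.6 CPM in NdpWT replicate 1, 53.6 in NdpWT replicate 2, 89.7 in NdpKO replicate 1 and 62.7 in NdpKO replicate 2. The cluster led by Ctla2a and Kdr, 1497 cells that took in capillary and venous cells, had 10.5, 6.09, 8.97 and 7.83 CPM in the same order. The lowest library of the first cluster was above the highest of the second. The ratio of the 2 levels within a library was 8.74 (95% interval 5.50 to 14.4), 8.80 (6.12 to 12.9), 10.0 (6.80 to 15.2) and 8.004 (5.24 to 12.7), from 742 Reck UMIs in all. The clusters were formed on genes of the same cells, so this contrast is a description and carries no test. When the 4 genes and the pathway genes were left out of the clustering, the 2 levels were 74.8 and 8.65 CPM on average, against 74.4 and 8.34 CPM. The new clusters were matched to these 2 by where most of their cells lay, which favours near-equal levels.

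Finer sub-clusters gave the same picture. Cells named arterial had 93.5, 61.3, 91.7 and 65.8 CPM of Reck, and cells named capillary or venous had 7.04 CPM pooled. A sub-cluster led by Pcdh17 and Piezo2 had 4.86 CPM and one led by Pcdh7 and Adgrg6 had 15.3 CPM. Cycling endothelial cells had 19.6 CPM pooled, but 53 of their 66 Reck UMIs came from the 36 cells of NdpKO replicate 1. The capillary or venous sub-clusters held 111 and 382 NdpWT cells but 4 and 17 NdpKO cells, while the Pcdh17 Piezo2 sub-cluster held 3 and 9 NdpWT cells and 67 and 110 NdpKO cells. The Ctla2a Kdr cluster is therefore not made of the same sub-clusters in the 2 genotypes.

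Adgra2 was found in the same kinds of cells, and more evenly. Fibroblasts held 50.1% of its 12081 UMIs, the Ecrg4 Nppc class 20.6%, endothelial cells 13.2% and mural cells 5.43%. Mural cells had 97.4 and 77.6 CPM in the NdpWT pair and 105 and 67.1 CPM in the NdpKO pair, replicate 1 first, endothelial cells 63.0, 58.4, 87.4 and 58.7 CPM, and fibroblasts 54.6, 55.9, 82.9 and 54.0 CPM. Mural cells were above endothelial cells, and endothelial cells above fibroblasts, in all 4 libraries, but the ranges over libraries overlapped for each neighbouring pair. NdpKO replicate 1 was the highest library in each of these 3 classes. The Ecrg4 Nppc class had 61.8, 57.2, 82.1 and 57.4 CPM and the Tubb6 Hmmr class 53.8, 47.0, 78.8 and 57.5 CPM, within the range of the others. Among mural cells Adgra2 was 88.8 CPM pooled (74.2 to 105.5) in 105 smooth muscle cells and 63.2 CPM (47.7 to 82.0) in 105 pericytes, while Reck was 8.26 CPM (4.27 to 14.4) and 15.8 CPM (8.63 to 26.5), from 12 and 14 UMIs, and for both genes the intervals of the 2 kinds of mural cell overlapped. Macrophages had 2.50 CPM pooled and the granule neuron lineage 2.24 CPM.

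The 2 endothelial clusters differed much less in Adgra2. The Gkn3 Fbln5 cluster had 76.5, 67.3, 96.5 and 64.4 CPM and the Ctla2a Kdr cluster 57.6, 54.9, 79.2 and 54.8 CPM, and the ratio within a library was 1.18 to 1.33, with 95% intervals that took in 1 in 2 of the 4 libraries. Reck and Adgra2 thus had different distributions within the endothelium, with ratios of 8.004 to 10.0 for Reck against 1.18 to 1.33 for Adgra2, a difference described here and not tested.

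**Figure D2:**
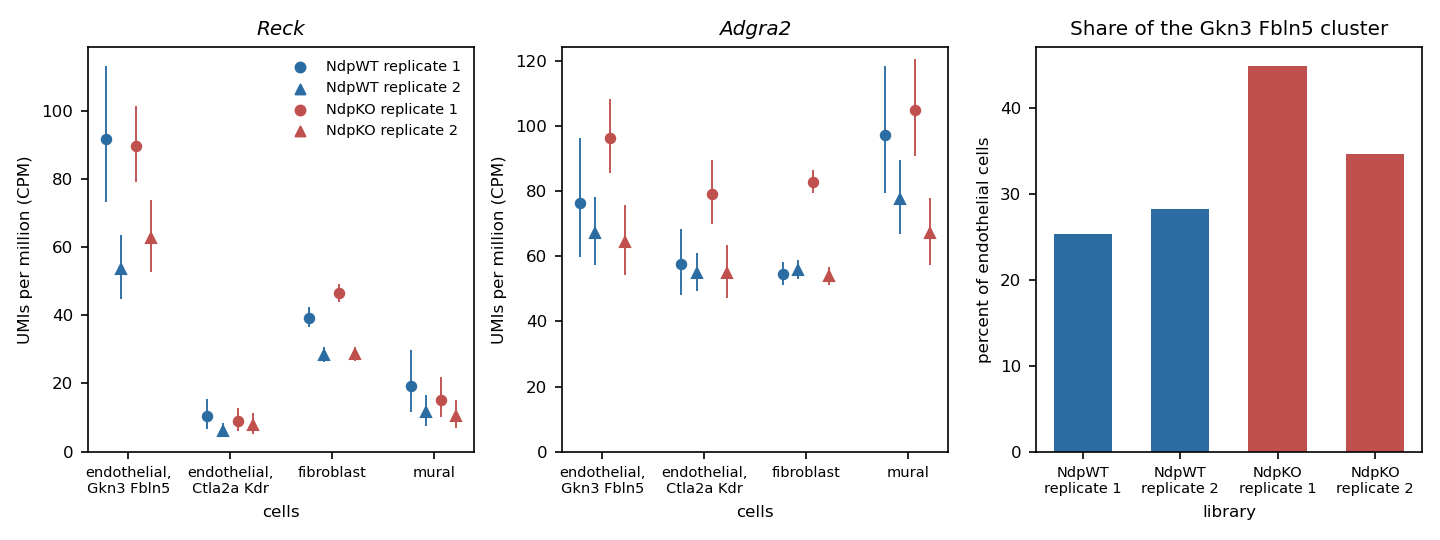
Reck (left) and Adgra2 (middle) levels in CPM in the 2 endothelial clusters, fibroblasts and mural cells, with 1 point per library and bars for exact 95% Poisson intervals, and (right) the percentage of endothelial cells in the Gkn3 Fbln5 cluster in each library. Reck runs from 53.6 to 91.6 CPM in the Gkn3 Fbln5 cluster and from 6.09 to 10.5 CPM in the Ctla2a Kdr cluster, whereas Adgra2 differs by a ratio of 1.18 to 1.33 between the clusters. The bars of the right panel stand at 25.4% and 28.2% in NdpWT and 44.9% and 34.6% in NdpKO.

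Counting cells instead of molecules gave the same order. At 3000 UMIs per cell, 20.3% of the Gkn3 Fbln5 cluster had a Reck UMI (exact binomial interval 17.0 to 23.9, 542 cells, with 155 shallower cells left out). The library values were 22.2% and 17.8% in NdpWT and 26.4% and 18.9% in NdpKO. The share was 2.00% (1.26 to 3.01) in the Ctla2a Kdr cluster, 9.29% in fibroblasts, 4.11% in mural cells, 0.700% in the granule neuron lineage and 0.453% in macrophages. Whether the last 2 shares are background or a low level of the gene was not tested. Unthinned shares were 38.7% in the Gkn3 Fbln5 cluster, 7.21% in the Ctla2a Kdr cluster, 34.6% in fibroblasts and 1.16% in macrophages. For Adgra2 the thinned shares were 20.9% and 16.3% in the 2 endothelial clusters, 16.0% in fibroblasts, 23.2% in mural cells and 0.831% in macrophages. In the Gkn3 Fbln5 cluster 23.9% (16.4 to 32.8) of cells with an Adgra2 UMI also had a Reck UMI, against 19.4% (15.7 to 23.4) of cells without one, and these intervals overlap.

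Markers of fibroblasts, which also carry Reck, were found in the endothelial class, where all 12 of 12 had UMIs. Their summed level was 1527 and 2463 CPM in NdpWT and 3376 and 2077 CPM in NdpKO in the Gkn3 Fbln5 cluster, and 398, 925, 873 and 901 CPM in the Ctla2a Kdr cluster, against 20870 to 24820 CPM in fibroblasts. The Reck level of the Gkn3 Fbln5 cluster was above the fibroblasts' own in every library. The part of fibroblast RNA in the Reck counts of the endothelial clusters was not tested.

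The comparison of genotypes asks whether the parallel route changed where norrin was missing. None of the 4 genes passed the edgeR test (Benjamini-Hochberg adjusted p under 0.05 over all genes of a class) in any class, and neither did either coreceptor in either endothelial cluster. In endothelial cells Reck averaged 26.6 ± 10.3 CPM (SD, n = 2) in NdpWT and 38.8 ± 12.3 CPM (SD, n = 2) in NdpKO, with overlapping libraries. Its edgeR log2 difference was 0.59 ± 0.34 (SE, adjusted p = 0.604). Adgra2 averaged 60.7 ± 3.30 CPM in NdpWT and 73.1 ± 20.3 CPM in NdpKO, a log2 difference of 0.25 ± 0.19 (adjusted p = 0.697). In this class 2.23% of 12675 genes passed. Without NdpKO replicate 2 the Reck difference was 0.89 with an edgeR adjusted p of 0.0144, and without NdpWT replicate 2 it was 0.17 with an adjusted p of 0.890. Without NdpKO replicate 1 the Adgra2 difference was -0.068.

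The endothelial Reck difference was smaller once the mix of clusters was held the same. The Gkn3 Fbln5 cluster made up 25.4% and 28.2% of endothelial cells in the NdpWT libraries and 44.9% and 34.6% in the NdpKO libraries. With the same cluster weights in every library, a calculation chosen after seeing the data, Reck averaged 31.6 ± 11.7 CPM in NdpWT and 33.0 ± 7.44 CPM in NdpKO, a difference of 1.38 CPM in place of 12.2 CPM. Adgra2 kept 9.94 of its 12.4 CPM. Within the clusters the Reck log2 difference was 0.15 ± 0.28 in the Gkn3 Fbln5 cluster (edgeR adjusted p = 1.00), where 0% of genes passed, and 0.11 ± 0.37 in the Ctla2a Kdr cluster (adjusted p = 0.968), where 3.14% passed. Adgra2 gave 0.19 ± 0.21 and 0.26 ± 0.20 (adjusted p = 1.00 and 0.741). Without NdpKO replicate 1 all 4 cluster differences turned, to -0.14 and -0.019 for Reck and -0.14 and -0.062 for Adgra2, and without NdpWT replicate 2 both Reck differences turned, to -0.26 and -0.35. In the Gkn3 Fbln5 cluster 409 genes had an unadjusted p under 0.05, and DESeq2 called 1 higher and 1 lower.

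**Figure D3:**
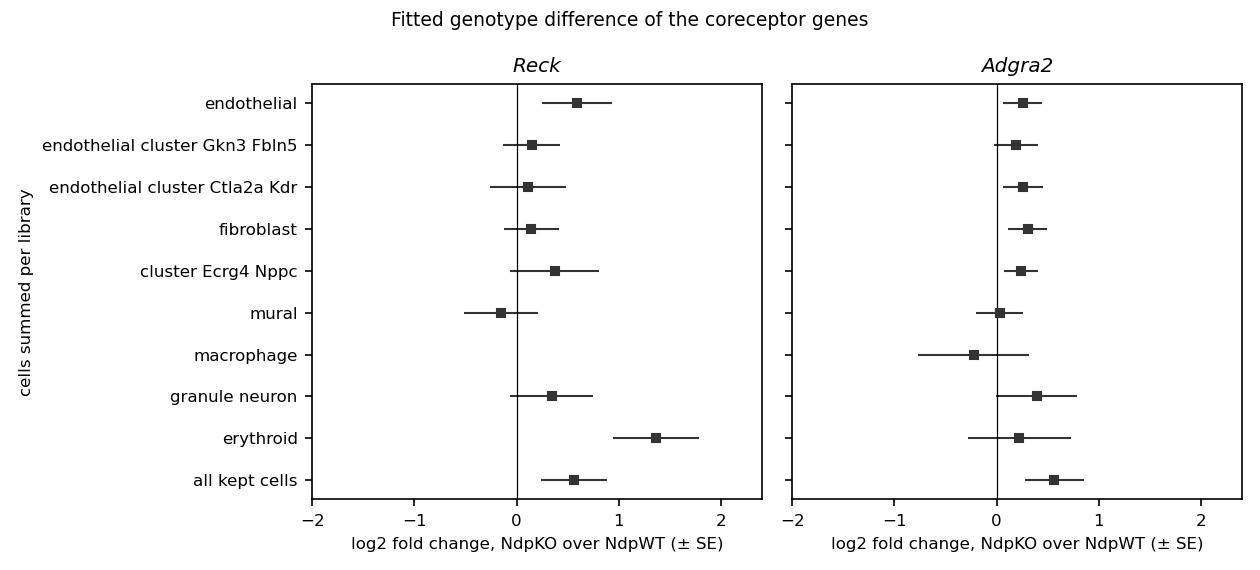
The edgeR log2 difference of NdpKO against NdpWT for Reck and Adgra2 in the groups of cells drawn, with bars of 1 standard error. The endothelial Reck point stands at 0.59, those of the 2 endothelial clusters stand at 0.15 and 0.11, and no point passed the test.

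In fibroblasts the log2 difference was 0.14 ± 0.27 for Reck and 0.30 ± 0.19 for Adgra2 (edgeR adjusted p = 0.903 and 0.668), where 0.013% of genes passed. In mural cells the values were -0.15 ± 0.37 and 0.03 ± 0.23 (adjusted p = 0.993 and 1.00), where 0.0369% passed. Without NdpKO replicate 1 they were -0.25 and -0.033 in fibroblasts, and the mural Adgra2 difference was -0.35; without NdpWT replicate 2 Reck was -0.10 in fibroblasts and Adgra2 -0.13 in mural cells; and without NdpWT replicate 1 or NdpKO replicate 2 mural Reck was 0.17 or 0.15. The Ecrg4 Nppc class gave 0.37 ± 0.43 and 0.24 ± 0.17, or -0.049 and -0.043 without NdpKO replicate 1, with 0% of genes passing, 608 genes at an unadjusted p under 0.05, and 7 genes called higher and 6 lower by DESeq2. The background was 0.104% in macrophages, 0.227% in the oligodendrocyte lineage and 0% in every other class fitted, with 161 to 456 genes at an unadjusted p under 0.05 in each of these, and DESeq2 called at most 3 higher and 6 lower in any of them.

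Some classes near the background level deserve their values. In erythroid cells Reck had 1.59 and 2.60 CPM in NdpWT and 5.65 and 5.53 CPM in NdpKO, 5 to 29 UMIs per library, so that the genotypes did not overlap. Markers of the arachnoid barrier, a layer of the meninges, moved with it: all 9 were detected in these cells, with a summed level of 1483 and 2205 CPM in NdpWT and 2868 and 4600 CPM in NdpKO. Their part in the result was not tested. The 12 fibroblast markers summed to 1263 and 2517 CPM in NdpWT and 2477 and 2283 CPM in NdpKO, which overlapped. The log2 Reck difference was 1.36 ± 0.42, with an unadjusted edgeR p of 0.0114 and an adjusted p of 0.999. Over all kept cells, a sum that mixes the share of each cell type with its level, Reck had 14.4 and 11.1 CPM in NdpWT and 25.5 and 13.2 CPM in NdpKO, and Adgra2 21.8, 26.1, 46.7 and 26.1 CPM. In such sums fewer cells of a type and less RNA per cell cannot be told apart. Their log2 differences were 0.56 ± 0.32 and 0.56 ± 0.29 (edgeR adjusted p = 1.00 for both).

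For the ligands the genotype test had little to work on. Over all kept cells the log2 difference was -0.68 ± 0.86 for Wnt7a and -0.63 ± 0.69 for Wnt7b (edgeR adjusted p = 1.00 for both), where 0% of genes passed, 550 had an unadjusted p under 0.05 and DESeq2 called 17 higher and 24 lower. Without NdpWT replicate 1, which held 34 of the Wnt7a and 69 of the Wnt7b UMIs, the differences were 0.72 and 0.73. In the oligodendrocyte lineage, fitted although some libraries held 45 to 49 cells, a choice made after seeing the data, the Wnt7b difference was 0.66 ± 0.71 (adjusted p = 0.999). In astroglia neither ligand passed the filter on low counts. Differences of the ligands between genotypes were therefore not detectable at this depth.

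The difference of the knockout effect between classes was tested directly in 1 edgeR fit with the library as a block. For Reck the effect was 0.45 ± 0.15 log2 higher in endothelial cells than in fibroblasts (edgeR adjusted p = 0.127), where 4.76% of genes passed. It was 0.76 ± 0.29 higher in endothelial than in mural cells (adjusted p = 0.350), where 0.85% passed, and the mural minus fibroblast difference was -0.31 ± 0.28 (adjusted p = 0.817), where 0.265% passed. For Adgra2 the same 3 differences were -0.04 ± 0.12, 0.22 ± 0.15 and -0.25 ± 0.14 (adjusted p = 0.948, 0.720 and 0.647). None of these passed. The block takes out the spread in level that the classes of a pool share. These tests therefore measure how far differences between classes vary between the pools of a genotype. Without the block the endothelial minus fibroblast difference for Reck was 0.46 ± 0.48 (edgeR adjusted p = 0.947). That fit treats the 3 classes of a library as independent, although they share pups.

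The rest of the pathway gives the setting of these values in the same endothelial fit. Of the norrin arm, 4 of 5 genes were tested and none passed, with a median log2 difference of 0.24 against -0.003 over all genes. Fzd4, the norrin receptor, had 117 and 129 CPM in NdpWT and 156 and 159 CPM in NdpKO (0.33 ± 0.13, edgeR adjusted p = 0.276). Lrp5 had 20.2, 14.3, 38.2 and 22.7 CPM (0.85 ± 0.29, adjusted p = 0.238; it passed with no filter on low counts and without NdpKO replicate 2, where the difference was 1.19), Lrp6 differed by -0.17 ± 0.14 and Tspan12 by 0.15 ± 0.18 (-0.10 without NdpWT replicate 2). None of the 8 other Frizzled genes tested passed, and neither did Wls, which escorts Wnt proteins to the surface, or Porcn, which acylates them. Of the extracellular Wnt inhibitors 5 of 9 were tested and none passed. The 1 tested relative of Adgra2, Adgra3, did not pass.

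Genes known as read-outs of beta-catenin, which both routes reach, fell in the knockout endothelium. Of 10 tested feedback and target genes of beta-catenin, 6 fell and none rose, with a median log2 difference of -1.11. Of all 12675 genes tested in this fit 168 fell, and 2.23% passed in either direction. The lists were chosen with earlier results of these data known, so the counts from this list and the others are descriptions. Ppard, a nuclear receptor gene, had 85.1 and 70.2 CPM in NdpWT and 28.2 and 25.8 CPM in NdpKO (-1.54 ± 0.16, edgeR adjusted p = 0.000534). Axin2, a general feedback inhibitor of the pathway, had 37.3 and 27.5 CPM against 17.5 and 17.2 CPM (-0.89 ± 0.20, adjusted p = 0.0465), a call lost without NdpWT replicate 1 (-0.67, adjusted p = 0.203), with DESeq2, with doublets kept and under the stricter cell filter. For both genes the genotypes did not overlap. The other 4 were Apcdd1 (-1.66), Nkd1 (-1.60), Sp5 (-1.32) and Foxq1 (-0.84, and -0.63 and not called without NdpWT replicate 1). Of 16 genes of the cytoplasmic and nuclear machinery, the transcription factor genes Lef1 (-0.80 ± 0.15, edgeR adjusted p = 0.0185) and Tcf7 (-0.89 ± 0.16) fell and Ctnnb1, which encodes beta-catenin, did not pass (0.42 ± 0.14, adjusted p = 0.186). Apcdd1 and Nkd1 were among the leading genes of the capillary or venous sub-clusters. Those sub-clusters held 111 and 382 NdpWT cells but 4 and 17 NdpKO cells. The part of this change of cell mix in the falls of the whole class was not tested.

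Genes for metalloproteinases, which Reck restrains, and for their tissue inhibitors gave mixed results. Of 7 tested genes for metalloproteinases or their tissue inhibitors, 2 rose, beside 115 of all 12675 genes tested. Timp3, a matrix-bound inhibitor, had 151 and 180 CPM in NdpWT and 260 and 284 CPM in NdpKO (0.69 ± 0.14, edgeR adjusted p = 0.0247). Timp2 had 104 and 106 CPM against 215 and 160 CPM (0.81 ± 0.16, adjusted p = 0.0235). The Timp3 call was lost without NdpWT replicate 1 (0.59, adjusted p = 0.111), and the Timp2 call without NdpKO replicate 1 (0.57, adjusted p = 0.0543) and with doublets kept. Timp2 was high in the Gkn3 Fbln5 cluster (285 to 400 CPM) and low in the Ctla2a Kdr cluster (14.0 to 73.8 CPM), as Reck was. Mmp2, a gelatinase gene, had 28.9 and 32.4 CPM in NdpWT and 77.9 and 44.2 CPM in NdpKO (0.97 ± 0.27, adjusted p = 0.162; it passed with DESeq2, with no filter on low counts and without NdpKO replicate 2, where the difference was 1.33), and Mmp14, a membrane-bound metalloproteinase gene, differed by 0.30 ± 0.14 (adjusted p = 0.430).

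The 2 endothelial clusters differed in how many pathway genes passed, a difference that was not itself tested. In the Ctla2a Kdr cluster, where 3.14% of 11437 genes passed in either direction, 176 of them downward, 5 of 10 target genes fell. Timp3 rose there, with 83.4 and 99.7 CPM in NdpWT and 243 and 203 CPM in NdpKO (1.28 ± 0.16, edgeR adjusted p = 0.000853), while the sub-clusters of this cluster differed between the genotypes as given above. Leaving out NdpWT replicate 1 or NdpKO replicate 1 ended the calls of Sp5 (-1.36, and -1.33 or -1.05 without them) and Tcf7 (-0.92, and -0.84 or -0.74) in this cluster. In the Gkn3 Fbln5 cluster none of 9 tested target genes passed, but neither did any other of the 10924 genes tested (0% by edgeR, with 409 at an unadjusted p under 0.05, while DESeq2 gave 1 gene that rose and 1 that fell). Axin2 there had 22.6 and 18.1 CPM in NdpWT and 7.81 and 10.6 CPM in NdpKO (-1.12 ± 0.35, adjusted p = 1.00). Timp3 there differed by -0.05 ± 0.19.

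In fibroblasts and mural cells no gene of any of the 8 lists passed, where 0.013% of all fibroblast genes and 0.0369% of all mural genes passed. Mural Axin2 had 84.9 and 57.6 CPM in NdpWT and 33.1 and 31.0 CPM in NdpKO (-1.07 ± 0.23, edgeR adjusted p = 0.152). Lef1 had 31.1, 24.9, 15.3 and 15.7 CPM in fibroblasts (-0.86 ± 0.15, adjusted p = 0.157). The genotypes did not overlap in either case, and neither difference passed. The Col15a1 Itih5 cluster made up 49.3% and 45.1% of fibroblasts in NdpWT and 22.5% and 29.3% in NdpKO. The part of this mix in the fibroblast Lef1 values was not tested.

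**Figure D4:**
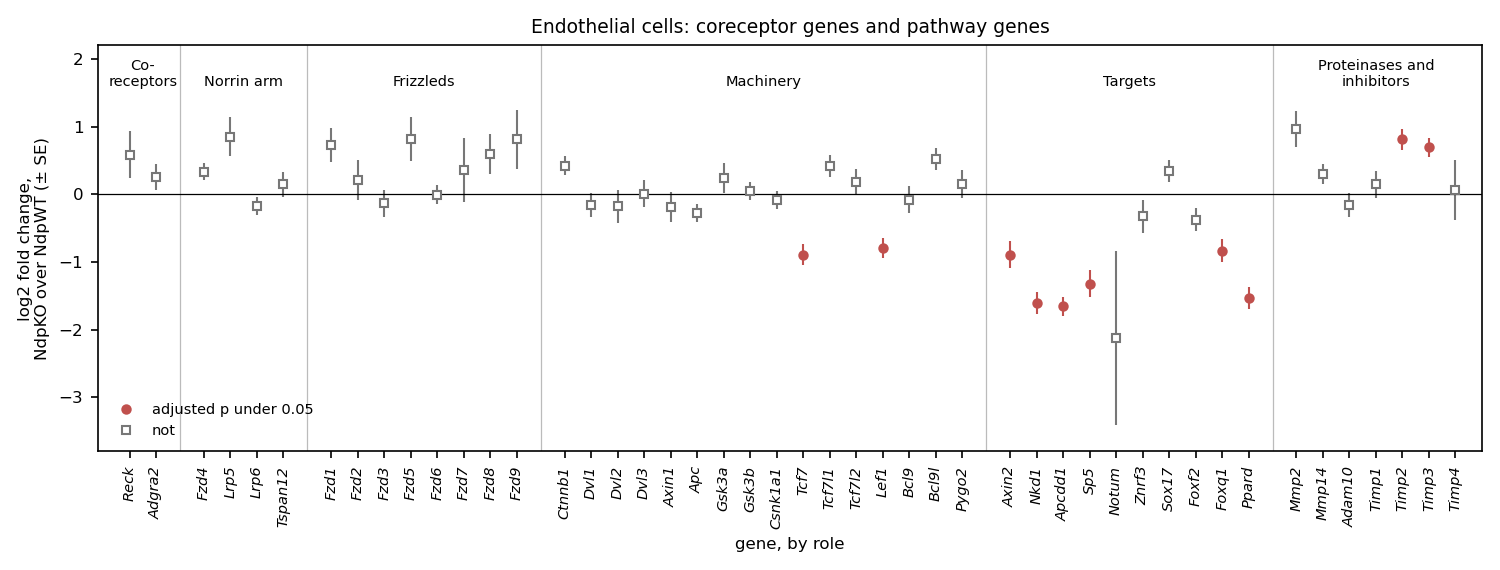
The edgeR log2 differences of NdpKO against NdpWT in endothelial cells for the pathway genes tested, grouped by role, with bars of 1 standard error and filled points for genes that passed. The 6 target genes that passed lie below 0, Timp2 and Timp3 lie above 0, and Reck and Adgra2 lie at 0.59 and 0.25 with open points.

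The genes most alike in pattern were ranked by Pearson correlation of log2(CPM + 1) over 56 points, 4 libraries times the 14 classes that met the minimum of 50 cells in each of them, among 12610 genes that reached 10 CPM. These points share libraries and depth, and the values are descriptions. Nearest to Reck were Tns2 (r = 0.91), Mmp2 and Ephb4 (both 0.89), and Tmem100 and Adgra2 (both 0.88). Nearest to Adgra2 were Tns2 and Olfml2a (both 0.96), Sparc (0.95), and Id3 and Ackr3 (both 0.94). Wnt7b was nearest to Sst (0.82), a gene of interneurons, to Pnoc (0.78) and to Tfap2a, Glra2 and Gm37107 (all 0.76), over classes that did not include astroglia or the oligodendrocyte lineage. The highest Wnt7b level in the classes used was 3.19 CPM, from 16 UMIs in the GABAergic interneuron lineage, so little is read from this ranking. The highest value for Wnt7a was 0.35, whose own level in these classes was at most 0.252 CPM, so nothing is read from it.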

How the data were processed

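The authors deposited UMI counts per gene and cell barcode for 4 libraries of the 10x 3' assay, made with Cell Ranger 6.1.2 on mm10 per the submitters' processing notes; the use of introns and strand is not stated in the sources used. The files held 32285 genes and no cell annotation, and barcodes with fewer than 500 UMIs were absent.

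Barcodes needed 500 genes and 1000 UMIs, and no more than 10% of UMIs from mitochondrial genes, to be kept, and doublets called by Scrublet (scanpy 1.11.5) in each library (1.70% to 2.59%) were removed. Free RNA was not corrected. Cells were clustered on 2000 variable genes and 30 principal components (20 neighbours, Leiden resolution 1, leidenalg 0.10.2), and the classes were clustered again for sub-classes. A cluster took a name only with 3 or more markers among its leading genes.

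Counts were summed per library and class, and genotypes were compared with edgeR 4.0.16 (quasi-likelihood test, TMM factors, filterByExpr with a minimum count of 10), in each class where no library had fewer than 50 cells, with Benjamini-Hochberg adjustment over all genes of a class and a threshold of 0.05. Replicates are pools of pups; nothing pairs their numbers. On simulated counts with 2-fold changes the test recovered 62.4% of changed genes in endothelial cells, 69.5% in fibroblasts and 54.8% in mural cells. Alternatives were DESeq2 1.42.0, plain library totals, no filter on low counts, the replicate number as a block, a stricter cell filter, doublets kept, 2 other clusterings, thinning to 1500 UMIs, no library block in the test between classes, and each library left out in turn. Others were added after seeing the data: endothelial cells without sub-clusters of mixed or low-depth barcodes, classes with fewer cells fitted, and the clusters of 2 classes taken one by one or at the same weights. Gene positions and the printed sequences came from GENCODE M21 on GRCm38, where 99.6% of the gene identifiers were found.

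The 4 genes were counted in every class, but their values are given for only some of the classes. Other genes come from 8 lists and are named with values where they passed the test in the class described or are core partners (Ndp, Fzd4, Lrp5, Lrp6, Tspan12, Ctnnb1, Axin2, Lef1, Mmp2, Mmp14, Timp3). The lists, by role, are Wnt secretion, the norrin arm, other Frizzleds, Adgra2 relatives, beta-catenin machinery, targets, extracellular inhibitors, and metalloproteinases with their inhibitors. For each of the 4, the 5 genes most alike in pattern are also ranked. 1 gene of the target list is not reported here and is left out of its counts. The genes and lists were chosen with earlier results of these data known.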

Additional observations from a re-analysis of the deposited data

How the results depend on the processing

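Of 687 recomputed values, 608 stayed the same. For a tested difference this means the same direction and side of the threshold, and for a count, level or share only a small shift. Of the rest, 25 counts, levels or shares moved, 25 differences changed sign, 17 came to pass the test and 12 no longer did. The causes were not tested. Reck and Adgra2 levels in the 2 endothelial clusters moved by less than 1 SD under the 2 other clusterings and the stricter cell filter. There, new clusters were assigned to whichever of the 2 held most of their cells, so near-equal levels are partly built in. The clustering with doublets kept was not compared in this way. Thinning to 1500 UMIs lowered the share of cells with a UMI to 9.24% for Reck and 10.1% for Adgra2 in the Gkn3 Fbln5 cluster and to 8.42% for Adgra2 in the Ctla2a Kdr cluster, since fewer molecules are kept.

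The replicate number only names the libraries. The differences between replicates 1 and 2 of the 2 genotypes correlated at 0.105 over endothelial genes, 0.303 over fibroblast genes and 0.108 over mural genes, with 2 pairs. With a replicate block the endothelial Reck difference was 0.54 (edgeR adjusted p = 0.0452) and the mural Adgra2 difference -0.021, while 698 genes passed in endothelial cells against 283 and 805 in the Ctla2a Kdr cluster against 359. In that cluster the block raised the target genes that fell from 5 to 8, the machinery genes that fell from 1 to 2 and the proteinase and inhibitor genes that rose from 1 to 3.

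With no filter on low counts 745 genes passed in endothelial cells and 713 in the Ctla2a Kdr cluster, where 2 machinery genes fell and 3 proteinase or inhibitor genes rose; DESeq2 gave 2 of the latter. Without the sub-clusters of mixed or low-depth barcodes 425 endothelial genes passed. With doublets kept, 1 inhibitor gene rose in endothelial cells in place of 2, and the mural Reck difference was 0.018. The mural Adgra2 difference was -0.016 with plain library totals and -0.024 under the stricter cell filter.

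Leaving out each library in turn gave log2 differences of 0.17 to 0.99 for Reck and -0.068 to 0.52 for Adgra2 in endothelial cells. In the Ctla2a Kdr cluster the ranges were -0.35 to 0.47 and -0.062 to 0.51, in the Gkn3 Fbln5 cluster -0.26 to 0.52 and -0.14 to 0.44, in fibroblasts -0.25 to 0.45 and -0.033 to 0.58, in mural cells -0.55 to 0.17 and -0.35 to 0.36, and in the Ecrg4 Nppc class -0.049 to 0.99 and -0.043 to 0.46, for Reck and Adgra2 respectively. Over all kept cells Wnt7a ranged from -1.80 to 0.72 and Wnt7b from -1.30 to 0.73. Tspan12 in endothelial cells ranged from -0.10 to 0.39, and the endothelial minus fibroblast effect on Adgra2 from -0.056 to 0.023. Between 237 and 747 genes passed in endothelial cells, the highest without NdpKO replicate 2, and 158 to 328 in the Ctla2a Kdr cluster. The inhibitor and proteinase genes that rose numbered 1 to 3 in endothelial cells and 1 to 2 in the Ctla2a Kdr cluster, and the machinery genes that fell there 0 to 1.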
